A study of Homo sapiens with 95 samples.

Results

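NQO1 (NAD(P)H quinone dehydrogenase 1) is described here in 95 sparse full length (SFL) RNA-seq libraries of AALE, an immortalized line derived from human bronchial epithelium. Its row was taken by symbol, 1 of 27978 genes listed in every library, and the gene was chosen with earlier results of these data known. The libraries fall into 32 groups, the combinations of 8 genotypic perturbations and 4 treatments, with 3 libraries in 31 groups and 2 in FGFR1 with CSC. CRISPR knockouts of FAT1 and of CDKN2A were compared with GFP, cells given the pSpCas9-EGFP plasmid without a guide. Overexpression of NRF2 (gene NFE2L2), FGFR1, NRG1 and PIK3CA was compared with HcRed, an empty vector that carries a reporter. Cells of each genotype received DMSO, the solvent, or 1 of 3 chemicals in it. CSC is a condensate of cigarette smoke and was given at 24 μg/ml. BaP, the polycyclic hydrocarbon benzo(a)pyrene, was given at 173 μM. NNK, a nitrosamine found in tobacco, was given at 490 μM. The exposure time, the promoters of the vectors and whether a line came from 1 clone are not given in the sources used here. Everything below therefore concerns 1 cell line in 8 genetic forms at a single dose of each chemical.

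NQO1 is a cytosolic flavoenzyme that passes a pair of electrons from NADH or NADPH to quinones, which turns them into hydroquinones without a reactive semiquinone on the way. It is a classical target of NRF2, the transcription factor that KEAP1 holds at a low level until electrophiles or oxidants modify KEAP1, and that binds antioxidant response elements together with small MAF proteins. It also belongs to the gene battery of the aryl hydrocarbon receptor (AhR), which binds polycyclic hydrocarbons such as those in smoke, pairs with ARNT and turns on CYP1A1 and other genes of xenobiotic metabolism.

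In the GENCODE models on GRCh37, NQO1 (ENSG00000181019) lies on the minus strand at chr16:69740899-69760571, and its canonical transcript has 6 exons and starts at base 69760463. A snoRNA on the same strand and a lncRNA on the other strand lie inside the gene, and neither has a row of its own in the files. The strand setting of the counting is not given in the sources used here, so reads of the opposite lncRNA and of NQO1 cannot be told apart. From 1000 bases before to 50 bases after the transcript start, the letters TGACNNNGC, the core of an antioxidant response element, occur at 1 place on either strand, and GCGTG, the core bound by AhR and ARNT, at 3 places that do not overlap it. Of 19808 gene starts searched in the same way, 34.5% held TGACNNNGC, 74.7% held GCGTG, 28.3% held GCGTG at least 3 times and 26.8% held both. The stretch around the TGACNNNGC match is shown because NQO1 is treated as a target of NRF2. It is written 5′ to 3′ in the direction of NQO1, with the matched letters in capitals.
TGACNNNGC, first base at position -455 from the start, chr16:69760894-69760934: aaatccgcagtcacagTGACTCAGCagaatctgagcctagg
Of the GCGTG matches, those at positions -737 and -854 lie upstream of the start and the remaining one at bases 2 to 6 of the transcript. These matches are letters only, and no binding was measured.

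The libraries held between 287446 and 2116383 reads counted in genes (median 934235), and 9 held fewer than 500000. Between 55 and 844 of these reads (median 175) fell in NQO1, which ranked 811 of the 27978 genes by mean count. The depth that 3 reads stand for ranged from 1.42 to 10.4 CPM (reads scaled to a common library total), far under every NQO1 value. Levels are given below as CPM after TMM normalization, which corrects library sizes for a few genes that take many reads. The spread of NQO1 between libraries of a group was 0.14 on the log2 scale (pooled SD, 63 degrees of freedom), beside a median of 0.11 from counting error alone. The study calls its replicates biological, of cells plated in 24-well plates, and does not say whether they came from separate thaws or days, so p-values measure the spread between these libraries. Reads here carry no molecular identifiers, so spread from counting and the 3-read level cover counting error only. In bulk samples, fewer cells of a type and less RNA per cell cannot be told apart. In each line the perturbed gene did not overlap its control. Median CPM was 1384 against 210 for NFE2L2, 1196 against 52.2 for FGFR1, 5756 against 17.6 for NRG1, 524 against 84.4 for PIK3CA, 102 against 390 for FAT1 and 49.3 against 104 for CDKN2A.

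All 3 chemicals raised NQO1 over the 8 genotypes. The 24 DMSO libraries had between 55.7 and 190 CPM, with a median of 137. The 24 NNK libraries had between 84.0 and 239 CPM (median 173), and the 24 BaP libraries between 140 and 420 CPM (median 278). The 23 CSC libraries reached the highest levels, between 154 and 476 CPM (median 355). Within a genotype, all CSC and all BaP libraries lay above all DMSO libraries in 8 of 8 genotypes, and all NNK libraries did so in 6 of 8. The mean level followed the order DMSO, NNK, BaP, CSC in 7 of 8 genotypes, with CDKN2A as the exception. The chemicals were given at different doses, so this order belongs to these doses only.

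In the differential analysis with genotype in the model (limma-voom, 2-sided, Benjamini-Hochberg adjustment over all genes tested), CSC raised NQO1 2.55-fold (95% interval 2.41 to 2.69). Its log2 fold change was 1.35 (SE 0.04, adjusted p = 1.97e-49), and 55.6% of all genes tested passed the threshold of 0.05, with 27.2% higher and 28.4% lower. By log2 fold change NQO1 ranked 71 of 14497 genes for CSC. BaP raised NQO1 2.06-fold (1.93 to 2.20; log2 1.04, SE 0.05, adjusted p = 5.60e-34), where 51.4% of genes passed, 26.4% higher and 25.1% lower. For BaP it ranked 123 of 14392. NNK raised NQO1 1.30-fold (1.22 to 1.39; log2 0.38, SE 0.05, adjusted p = 1.34e-11), and there its rank was 2563 of 14387, among 51.7% of genes past the threshold, 25.9% higher and 25.8% lower. Since more than 50% of all genes passed in each of these comparisons, passing alone sets NQO1 apart little, and its size and rank carry the description. The median log2 fold change over all genes was -0.01 for CSC, 0.01 for BaP and 0.00 for NNK. Median depth was 1051108 reads with DMSO and 825587, 836088 and 753703 with CSC, BaP and NNK, and each pooled NQO1 response stayed past the threshold without the libraries under 500000 reads.

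**Figure D1:**
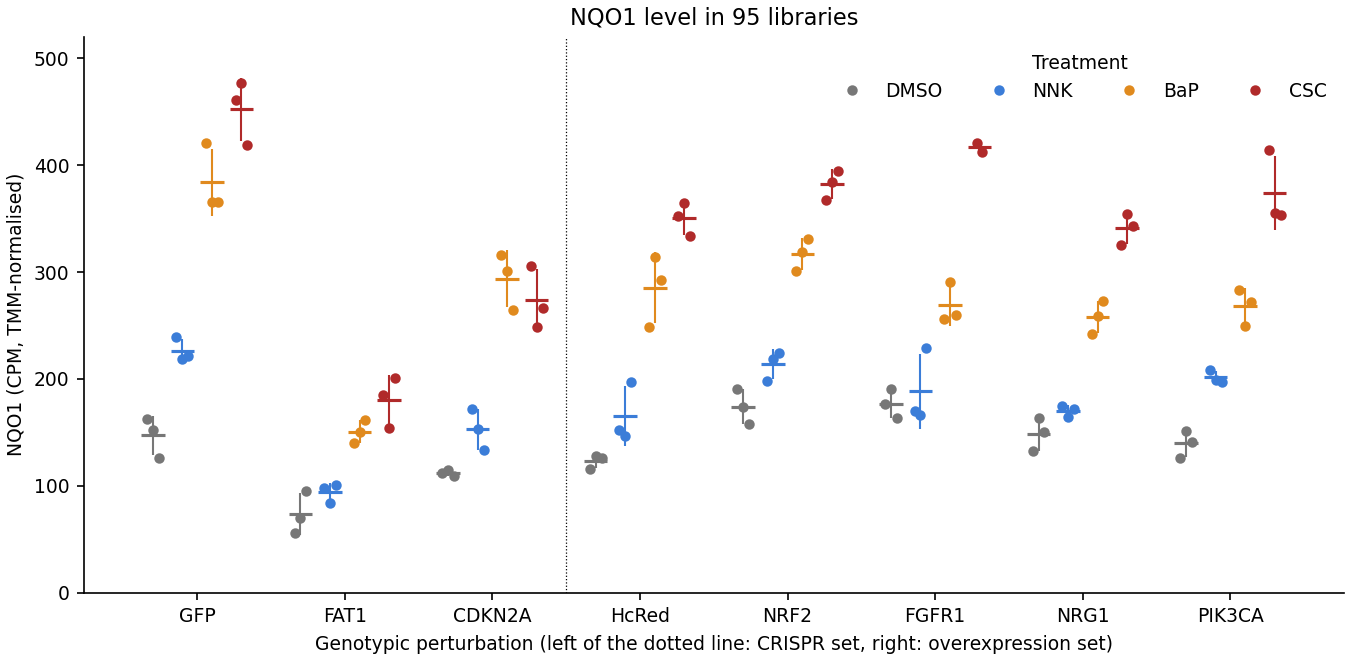
NQO1 level in CPM (vertical axis, from 0) in each of 95 libraries (points) by genotype (horizontal axis) and treatment (colour), with the group mean as a horizontal bar and 1 SD as a vertical line. The highest group was GFP with CSC (mean 452 CPM) and the lowest FAT1 with DMSO (73.7 CPM), and the FAT1 libraries lie under those of all other lines in each of the 4 treatments.

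Ordered by mean level, the 32 groups spanned a 6.13-fold range, from 452 ± 29.6 CPM (SD, n = 3) in GFP with CSC to 73.7 ± 20.0 CPM in FAT1 with DMSO. Of the 31 pairs of neighbours in this order, 28 overlapped. The 3 that did not were NRG1 with BaP over GFP with NNK, HcRed with DMSO over CDKN2A with DMSO, and CDKN2A with DMSO over FAT1 with NNK. The 14 highest groups were all groups with CSC or BaP, and no library of these 14 was as low as any library of the groups ranked below them.

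In the GFP control, NQO1 had the largest response to CSC of the 8 genotypes. Its DMSO libraries had 162, 153 and 126 CPM and its NNK libraries 239, 219 and 222 CPM. With BaP it reached 420.3, 366 and 365 CPM, and with CSC 460, 476 and 419 CPM. No library of any chemical was as low as a DMSO library, and BaP and CSC overlapped by 1 library (420.3 against 419 CPM). The log2 fold changes were 1.64 for CSC (SE 0.09, adjusted p = 1.32e-24, 25.0% of genes called), 1.43 for BaP (SE 0.10, adjusted p = 1.48e-15, 11.0% called) and 0.68 for NNK (SE 0.12, adjusted p = 8.64e-06, 18.2% called).

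In the HcRed control, NQO1 was lower than in GFP under each treatment by mean, and responded in the same order. The DMSO libraries had 116, 128 and 126 CPM. NNK gave 152, 147 and 197 CPM, so that 1 of its libraries lay well above the other two. BaP gave 249, 314 and 293 CPM, and CSC gave 352, 365 and 334 CPM. Both of these stood clear of DMSO and of each other. CSC raised NQO1 by 1.51 on the log2 scale (SE 0.11, adjusted p = 4.42e-21, 23.8% called) and BaP by 1.20 (SE 0.12, adjusted p = 6.30e-18, 4.72% called). NNK raised it by 0.40 (SE 0.13, adjusted p = 0.0244, 16.4% called). This last call was lost without NNK library 3 (0.29, adjusted p = 0.164) or without DMSO library 1 (0.35, adjusted p = 0.121). It was also lost with DESeq2 (0.147), with no filter (0.0504) and without replicate 1 or 3 of each group (0.13 and 0.211). It held in 11 of 17 alternatives, within a range of 0.00347 to 0.211.

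Loss of FAT1, a large protocadherin that is often mutated in squamous cancers, went with the lowest NQO1 of all lines. Its DMSO libraries had 55.7, 70.1 and 95.3 CPM, the widest spread of any group (SD 0.38 on the log2 scale). NNK gave 98.2, 84.0 and 100.5 CPM, BaP 140, 150 and 162 CPM, and CSC 185, 154 and 201 CPM. The CSC libraries of this line overlapped the DMSO libraries of the FGFR1, NRF2, NRG1 and GFP lines. Relative to its own DMSO, NQO1 still rose by 1.41 with CSC (SE 0.14, adjusted p = 1.85e-16, 12.7% called) and by 1.08 with BaP (SE 0.15, adjusted p = 3.15e-07, 15.1% called). The NNK value of 0.42 (SE 0.16) did not pass (adjusted p = 0.0700, 10.2% called), but passed without DMSO library 3 (0.61, adjusted p = 0.0179), within a range of 0.0179 to 0.652 over 17 alternatives. Against GFP with all treatments in the model, NQO1 was 0.414-fold in FAT1 (95% interval 0.380 to 0.451; log2 -1.27, SE 0.06, adjusted p = 1.95e-29), where 48.9% of genes were called, 25.0% higher and 23.9% lower. It ranked 13659 of 14021 genes from the top. The difference was -1.07 with DMSO (SE 0.14, adjusted p = 1.67e-07, 26.3% called) and -1.32 with CSC (SE 0.09, adjusted p = 2.23e-23, 25.3% called). With BaP it was -1.40 (SE 0.12, adjusted p = 1.69e-19, 21.4% called) and with NNK -1.31 (SE 0.14, adjusted p = 4.66e-15, 17.2% called).

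Loss of CDKN2A, the locus of the cell cycle inhibitor p16 and of p14ARF, also went with less NQO1 than GFP, by a smaller margin. Its DMSO libraries were tightly grouped at 112, 115 and 109 CPM, and NNK gave 172, 153 and 134 CPM. BaP gave 316, 301 and 264 CPM and CSC 306, 249 and 267 CPM, so this was the only line where the BaP mean exceeded the CSC mean, with overlapping libraries. BaP raised NQO1 by 1.43 (SE 0.11, adjusted p = 6.47e-23, 18.6% called) and CSC by 1.33 (SE 0.11, adjusted p = 1.39e-22, 11.2% called). NNK raised it by 0.42 (SE 0.11, adjusted p = 0.0157, 5.42% called). That call was lost without any 1 of the 3 DMSO libraries (adjusted p = 0.117, 0.0506 and 0.0774) or without NNK library 2 (0.0707). It was also lost with DESeq2 (0.189) and without replicate 1 or 2 of each group (0.147 and 0.205). It held in 10 of 17 alternatives, within 0.00368 to 0.205, and its log2 fold change stayed between 0.36 and 0.52. Against GFP over all treatments, NQO1 was 0.682-fold in CDKN2A (0.632 to 0.735; log2 -0.55, SE 0.06, adjusted p = 1.21e-13), in a comparison where 57.6% of genes were called, 29.4% higher and 28.3% lower. Under single treatments the differences were -0.40 with DMSO (SE 0.11, adjusted p = 2.96e-03, 37.2% called), -0.72 with CSC (SE 0.09, adjusted p = 1.11e-10, 32.3% called), -0.40 with BaP (SE 0.09, adjusted p = 5.81e-04, 32.1% called) and -0.65 with NNK (SE 0.12, adjusted p = 8.30e-06, 28.1% called). The DMSO call was lost without replicate 1 of each group (-0.32, adjusted p = 0.0632), within 2.40e-04 to 0.0632 over 17 alternatives.

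Overexpression of NRF2 went with a modest gain of NQO1. The DMSO libraries of this line had 190.3, 174 and 158 CPM, all above the 3 HcRed values of 116 to 128 CPM. NNK gave 198, 218 and 225 CPM, and BaP 301, 318 and 331 CPM. CSC gave 367, 384 and 395 CPM. The libraries of this line lay above all HcRed libraries with DMSO, with CSC (lowest 367 against highest 365 CPM) and with NNK (198 against 197 CPM), the latter gaps being narrow, and overlapped them with BaP. Over all treatments NQO1 was 1.19-fold HcRed (95% interval 1.10 to 1.27; log2 0.25, SE 0.05, adjusted p = 2.03e-04, 21.6% of genes called), while NFE2L2 itself was higher by 2.73 on the log2 scale (SE 0.04, adjusted p = 8.76e-63). With DMSO the NQO1 difference was 0.50 (SE 0.11, adjusted p = 1.75e-03, 7.16% called) and with NNK 0.42 (SE 0.13, adjusted p = 0.0362, 3.91% called). The DMSO call was lost without replicate 1 of each group (0.40, adjusted p = 0.157) and by a narrow margin with DESeq2 (adjusted p = 0.0507), within 6.16e-04 to 0.157 over 17 alternatives. The NNK call was lost without HcRed library 1 or 2 (adjusted p = 0.213 and 0.280) or without NRF2 library 2 or 3 (0.112 and 0.124). It was also lost with DESeq2 (0.476), with no filter (0.0541) and in 1 fit of 95 samples (0.0627). Leaving out replicate 1, 2 or 3 of each group lost it too (0.132, 0.384 and 0.0658). It held in 7 of 17 alternatives, within 0.0173 to 0.476. With CSC the difference was 0.13 (SE 0.09, adjusted p = 0.459, 4.87% called) and with BaP 0.16 (SE 0.09, adjusted p = 0.337, 7.25% called), and neither passed. Within the line, CSC raised NQO1 by 1.13 (SE 0.09, adjusted p = 1.50e-18, 9.10% called), the smallest CSC response of the 8 genotypes by value, and BaP by 0.85 (SE 0.09, adjusted p = 5.99e-11, 8.51% called). The NNK value of 0.30 (SE 0.11, adjusted p = 0.0847, 6.90% called) did not pass. It passed with removal of GC and length trends (0.45, adjusted p = 0.0263) and without replicate 1 of each group (0.42, 0.0473). The range was 0.0263 to 0.465 over 17 alternatives.

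Overexpression of FGFR1, a receptor tyrosine kinase amplified in squamous lung cancer, went with NQO1 values near those of the NRF2 line with DMSO only. With CSC the FGFR1 libraries lay above all NRF2 libraries (367 to 395 CPM) and with BaP below them (301 to 331 CPM). The DMSO libraries of the FGFR1 line had 177, 190.4 and 163 CPM, all above HcRed. NNK gave 170, 166 and 229 CPM, which overlapped DMSO, and BaP gave 256, 290.4 and 260.2 CPM. The 2 CSC libraries had 421 and 412 CPM, above every HcRed library. Over all treatments NQO1 was 1.16-fold HcRed (1.08 to 1.26; log2 0.22, SE 0.06, adjusted p = 4.42e-03, 13.5% called). Without DMSO the value was 0.14 (adjusted p = 0.164), without CSC 0.21 (adjusted p = 0.0569) and without replicate 1 of each group 0.18 (adjusted p = 0.0656), in a range of 2.27e-04 to 0.164 over 16 alternatives. By treatment it was 0.51 with DMSO (SE 0.11, adjusted p = 3.22e-03, 1.86% called), 0.24 with CSC (SE 0.09, adjusted p = 0.186, 2.83% called), -0.04 with BaP (SE 0.12, adjusted p = 0.943, 1.42% called) and 0.25 with NNK (SE 0.13, adjusted p = 0.374, 2.47% called). The DMSO call was lost without HcRed library 1 (0.46, adjusted p = 0.0732), without replicate 1 of each group (0.46, 0.161) and with DESeq2 (0.0767). Its adjusted p ran from 0.00105 to 0.161 over 17 alternatives. Within the line CSC raised NQO1 by 1.22 (SE 0.10, adjusted p = 1.16e-19, 11.7% called) and BaP by 0.65 (SE 0.11, adjusted p = 4.60e-05, 5.43% called). The NNK value was 0.13 (SE 0.11, adjusted p = 0.526, 7.84% called) and turned to -0.05 without NNK library 3.

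The NRG1 and PIK3CA lines were the closest to HcRed in NQO1. NRG1 encodes a ligand of the ERBB receptors, and its line had 132, 164 and 150 CPM with DMSO and 174, 165 and 172 CPM with NNK. BaP gave 242, 259 and 273 CPM and CSC 325, 355 and 343 CPM, both clear of DMSO. Within the NRG1 line CSC raised NQO1 by 1.24 (SE 0.10, adjusted p = 1.86e-20, 13.9% called) and BaP by 0.81 (SE 0.12, adjusted p = 1.60e-05, 7.81% called). The NNK value was 0.23 (SE 0.12, adjusted p = 0.260, 6.43% called). Against HcRed over all treatments the NRG1 line differed by 0.02 (SE 0.06, adjusted p = 0.894, 10.8% called), with a fold between 0.937 and 1.10. By treatment the values were 0.25 with DMSO, -0.02 with CSC, -0.14 with BaP and 0.09 with NNK (adjusted p = 0.344, 0.961, 0.672 and 0.823, with 2.04%, 2.31%, 1.52% and 1.85% of genes called).

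The PIK3CA line overexpresses the catalytic subunit of a phosphoinositide 3-kinase. It had 127, 152 and 141 CPM with DMSO, 209, 199 and 197 CPM with NNK, 283, 250 and 272 CPM with BaP and 414, 355 and 354 CPM with CSC. These 4 sets of libraries did not overlap. Within the line CSC raised NQO1 by 1.39 (SE 0.09, adjusted p = 2.41e-20, 22.6% called), BaP by 0.95 (SE 0.09, adjusted p = 5.34e-12, 10.9% called) and NNK by 0.52 (SE 0.11, adjusted p = 7.50e-04, 9.74% called). Against HcRed over all treatments it differed by 0.09 (SE 0.05, adjusted p = 0.225, 27.8% called), with a fold between 0.990 and 1.14, and without BaP by 0.15 (adjusted p = 0.0466, in a range of 0.0466 to 0.992 over 16 alternatives). By treatment the values were 0.18 with DMSO, 0.07 with CSC, -0.07 with BaP and 0.29 with NNK (adjusted p = 0.397, 0.685, 0.743 and 0.178, with 8.60%, 10.3%, 7.12% and 6.62% called).

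The control lines themselves differed. GFP had 1.32 times the NQO1 of HcRed over all treatments (95% interval 1.24 to 1.41; log2 0.40, SE 0.05, adjusted p = 8.07e-11), and 45.0% of genes were called in that comparison. The difference between the controls is larger by value than the gains of 0.25 and 0.22 in the NRF2 and FGFR1 lines, each of which was measured against HcRed alone. The FAT1 and CDKN2A differences were measured against GFP alone. With DMSO, NNK, BaP and CSC the mean was 112, 153, 294 and 274 CPM in CDKN2A and 123, 165, 285 and 350 CPM in HcRed. The CDKN2A deficit thus depends on the control used, and CDKN2A was not tested against HcRed. In all, 20 of 24 chemical responses within a genotype and 11 of 24 line differences within a treatment passed the threshold.

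**Figure D2:**
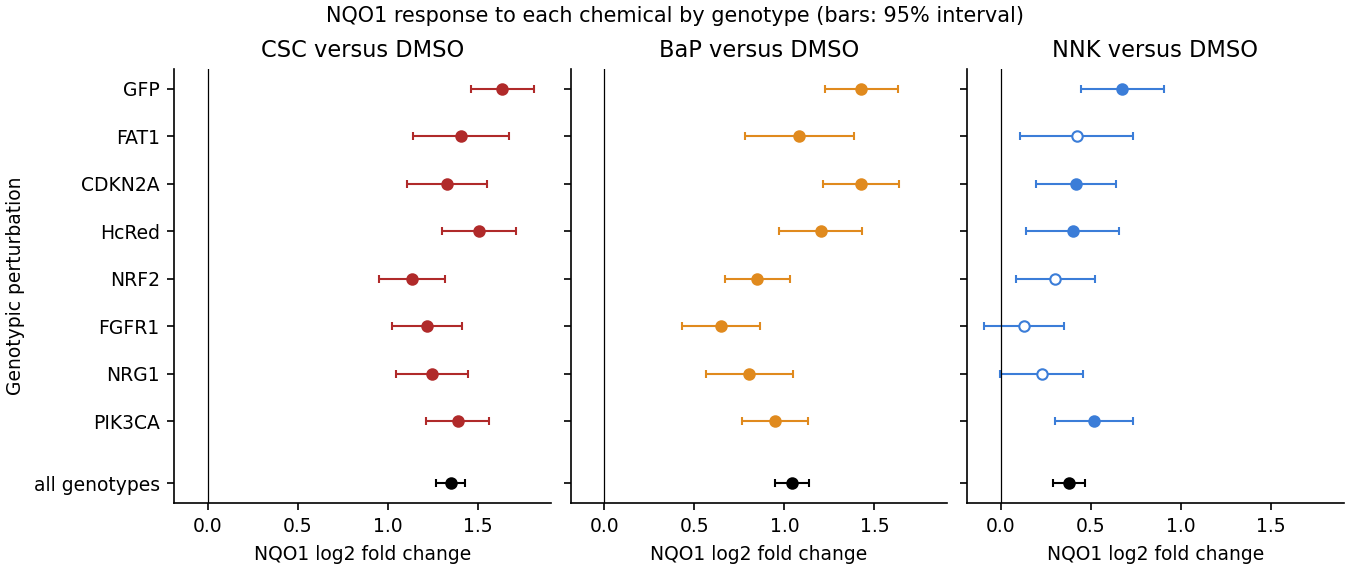
NQO1 log2 fold change (horizontal axis) of CSC, BaP and NNK against DMSO in each of 8 genotypes and over all genotypes (vertical axis), with 95% intervals. Filled points passed an adjusted p of 0.05. All 8 CSC points (1.13 to 1.64) and all 8 BaP points (0.65 to 1.43) are filled, and 4 of 8 NNK points (0.13 to 0.68).

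**Figure D3:**
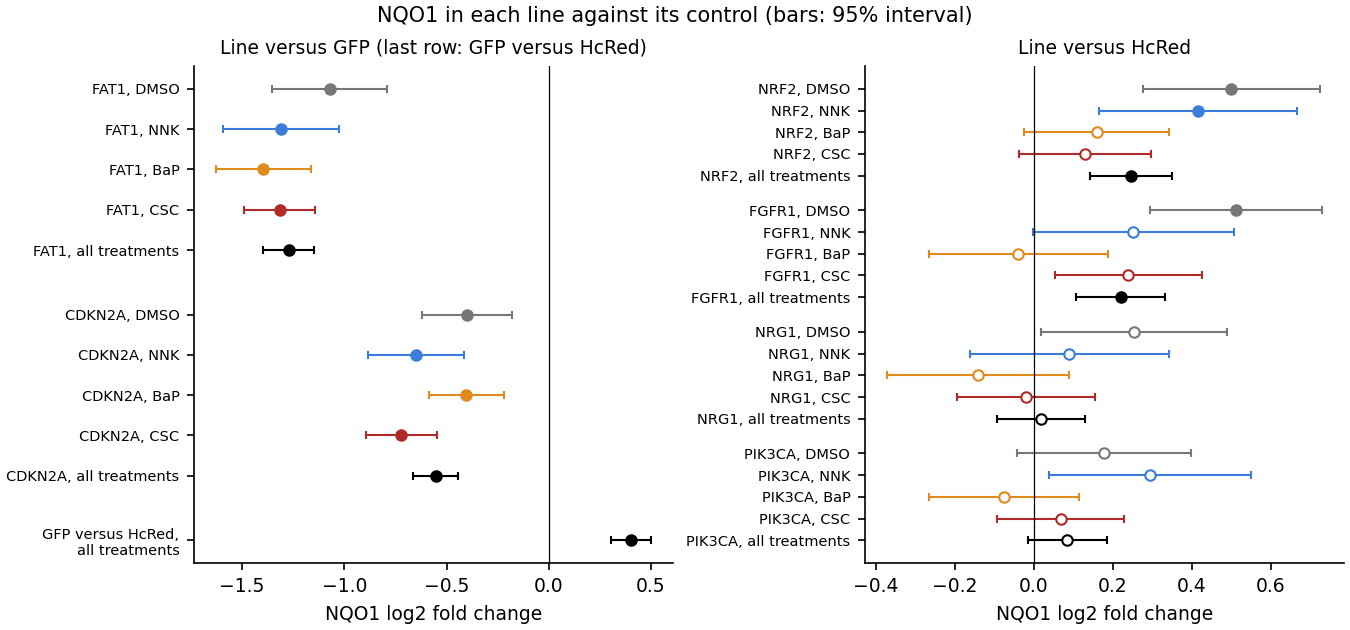
NQO1 log2 fold change (horizontal axis) of each line against its control under each treatment and over all treatments (vertical axis), with 95% intervals. Filled points passed an adjusted p of 0.05. The FAT1 points lie between -1.40 and -1.07 and the CDKN2A points between -0.72 and -0.40, while in the overexpression lines only NRF2 with DMSO and NNK, FGFR1 with DMSO and their pooled values are filled.

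Whether a line changed the response to a chemical was tested as an interaction. None of the 18 differences of response passed for NQO1 with limma-voom, and none passed with edgeR or DESeq2 either. With limma-voom 5 had an unadjusted p under 0.05, and by value 17 lay below 0 and 1 above. Over all genes and these 18 tests, 0.0799% of values were called. The CSC response of NRF2 was lower than that of HcRed by 0.37 on the log2 scale (SE 0.14, unadjusted p = 0.0110, adjusted p = 0.327), in a test that called 0.238% of genes. The value furthest from 0 was that of BaP in FGFR1 (-0.54, SE 0.16, unadjusted p = 1.43e-03, adjusted p = 0.998). For FAT1 the 3 differences from GFP lay between -0.31 and -0.26, with SEs of 0.17 to 0.21, so the line that held the least NQO1 had responses to all 3 chemicals that could not be told from those of its control at this depth. The 12 differences of the overexpression lines share the HcRed libraries, and the 6 of the knockout lines share the GFP libraries.

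The mRNAs of the regulators of NQO1 moved in both directions. NFE2L2 fell with all 3 chemicals over all genotypes (-0.22 for CSC, -0.13 for BaP and -0.23 for NNK, with adjusted p = 6.36e-08, 5.58e-04 and 3.74e-08). This includes the NRF2 line, whose reads may come from the gene or the vector, and group means were not lower in every genotype. In the NRG1 line the mean log2 CPM of NFE2L2 was 7.72 with DMSO and 7.95, 7.75 and 7.86 with CSC, BaP and NNK, and it was also above DMSO in HcRed with BaP and in CDKN2A with NNK. The NRG1 libraries with CSC spread from 204 to 336 CPM of NFE2L2 and overlapped those with DMSO (198 to 220 CPM). In the same pooled comparisons KEAP1, whose protein marks NRF2 for degradation, rose by 0.34, 0.50 and 0.28 (adjusted p = 9.12e-07, 9.30e-13 and 1.13e-05). The small MAF partners MAFF (1.37, 1.15 and 0.97), MAFG (0.96, 0.94 and 0.39) and MAFK (0.68, 0.71 and 0.49) rose with CSC, BaP and NNK. So did SQSTM1 (0.99, 1.17 and 0.35), which encodes p62, an adaptor that sequesters KEAP1. BACH1, a repressor at the same elements, had -0.02, -0.07 and -0.10 and did not pass. Of the 11 listed regulators 6 rose and 3 fell with CSC, 7 rose and 1 fell with BaP, and 6 rose and 2 fell with NNK, where 55.6%, 51.4% and 51.7% of all genes were called in either direction. In FAT1, NFE2L2 fell by 0.66 (SE 0.06, adjusted p = 4.32e-16) and KEAP1 rose by 0.33 (adjusted p = 4.45e-04). In CDKN2A, NFE2L2 fell by 0.26 (adjusted p = 2.58e-04) and KEAP1 rose by 0.40 (adjusted p = 1.52e-05). In FGFR1 neither passed (NFE2L2 -0.07 and KEAP1 -0.04).

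Among 8 other enzymes that can reduce quinones or similar acceptors, 5 rose and 1 fell with CSC and with BaP. Of all genes 27.2% and 26.4% were higher and 28.4% and 25.1% lower. With so few genes in the list, these counts are description only. TXNRD1, thioredoxin reductase, rose by 0.79 with CSC and 0.72 with BaP, followed by AIFM2, a reductase of ubiquinone at membranes (0.56 and 0.69), NQO2, the close relative of NQO1 (0.46 and 0.46), CYB5R3 (0.44 and 0.37) and POR (0.39 and 0.46). CRYZ, a quinone oxidoreductase of the zeta-crystallin type, fell (-0.17 and -0.30). The carbonyl reductases CBR1 (-0.09 and 0.10) and CBR3 (0.22 and 0.36) did not pass. With NNK, NQO2 (0.29), POR (0.51), CYB5R3 (0.37) and AIFM2 (0.37) rose and CRYZ fell (-0.36), while TXNRD1 had 0.04 (adjusted p = 0.276). No value in this family reached the 1.35 and 1.04 of NQO1 with CSC and BaP. Per kilobase of exon, NQO1 had 46.1 ± 11.6 CPM in DMSO libraries (SD over 24), TXNRD1 53.5 ± 10.8, CBR1 22.1 ± 3.56, CRYZ 14.4 ± 2.46 and NQO2 5.29 ± 1.36. NQO1 and TXNRD1 were thus the leading members of this family per length.

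Most of the other listed NRF2 targets rose with CSC and BaP. In glutathione synthesis and use, 10 of 11 tested genes rose with CSC and 9 with BaP, against 27.2% and 26.4% of all genes, among them GCLC, the catalytic subunit of the first step (0.64 and 0.75), GCLM, its modifier (0.53 and 0.46), GSTP1 (0.54 and 0.60) and the exporter ABCC3 (1.19 and 0.71). In the thioredoxin list 4 of 5 genes rose with CSC and 3 with BaP, among them SRXN1, sulfiredoxin (0.79 and 0.98), and PRDX1 (0.39 and 0.31). PRDX6 fell with CSC (-0.12), and with BaP neither PRDX6 (-0.07) nor TXN (0.07) passed. Among NADPH suppliers the transketolase TKT rose by 0.57 and 0.55 and the transaldolase TALDO1 by 0.50 and 0.38, and 5 of 6 rose with each chemical. The remaining gene, IDH1, fell with CSC (-0.13) and did not pass with BaP (0.005). The ferritin chains FTL (1.71 and 1.41) and FTH1 (1.07 and 0.64), which store iron, rose as well. With NNK 5 genes of the glutathione list rose and 1 fell, and 1 of the thioredoxin list rose and 1 fell. For both directions together this is near the 51.7% of all genes called with NNK. Of all genes 25.9% were higher and 25.8% lower. GCLC had 0.11 (adjusted p = 0.0320), GCLM -0.06 without passing, and FTL 0.58. The medians of the glutathione, thioredoxin, NADPH and haem and iron lists were 0.49, 0.39, 0.40 and 0.92 for CSC, 0.42, 0.31, 0.33 and 0.64 for BaP, and 0.11, 0.04, 0.34 and 0.26 for NNK, beside medians of all genes between -0.01 and 0.01.

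Several genes of the AhR battery rose more than NQO1. CYP1A1, the monooxygenase that oxidizes benzo(a)pyrene, rose by 5.54 with CSC, 5.53 with BaP and 2.91 with NNK. CYP1B1 (3.37, 3.23 and 1.59), the repressor AHRR (2.65, 2.92 and 1.65) and the aldehyde dehydrogenase ALDH3A1 (2.02, 2.29 and 1.12) rose as well. TIPARP, a feedback inhibitor of the receptor, was nearer to NQO1 (1.61, 1.48 and 0.72), and UGT1A6, at low counts, had smaller values than NQO1 with CSC and BaP (0.89 and 0.98) and did not pass with NNK. Of 8 tested genes of the list 6, 6 and 5 rose with the 3 chemicals, against 27.2%, 26.4% and 25.9% of all genes. AHR and ARNT themselves had values between -0.07 and -0.03 and did not pass. In the FAT1 line members of the list differed from each other. With CSC its CYP1A1 level was 736 ± 55.8 CPM and with BaP 782 ± 66.2 CPM (n = 3 each), against 490 ± 69.2 and 381 ± 8.31 CPM in GFP, and over all treatments CYP1A1 was higher by 0.70 (SE 0.07, adjusted p = 6.08e-14) where NQO1 was lower by 1.27. With NNK the order was the other way, with 57.0 ± 5.01 CPM of CYP1A1 in FAT1 and 85.6 ± 6.77 in GFP. ALDH3A1 fell by 1.38 in the same line, CYP1B1 and AHRR rose by 0.49 and 0.65, and TIPARP had 0.03 without passing.

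Across lines, the listed NRF2 targets did not share the direction of NQO1 as a block. In FAT1, GCLC (-0.93), SLC7A11, the cystine importer (-0.85), PGD (-0.72), ME1 (-0.53) and TXNRD1 (-0.39) fell along with NQO1, while the glutathione transferase GSTM3, the exporter ABCC1 (0.89) and AIFM2 (0.84) rose. In the glutathione list 3 rose and 4 fell, in the NADPH list 1 rose and 3 fell, and in the carbonyl list 1 rose and 6 fell, where 25.0% of all genes were higher and 23.9% lower, so that the counts of the first 2 lists say little about them. Of the 6 carbonyl genes 4 were aldo-keto reductases of low counts, among which the AKR1C copies are close enough to share reads. In CDKN2A, FTL (1.95), ME1 (1.12), SLC7A11 (1.10), SQSTM1 (1.05), FTH1 (1.05) and MAFF (1.01) rose where NQO1 fell, and TXNRD1 (-0.04) and GCLC (0.09) did not pass. In NRF2, FTL (0.77), FTH1 (0.66), SQSTM1 (0.43), TALDO1 (0.35), TKT (0.33), TXN (0.30) and TXNRD1 (0.18) rose, while GCLC (-0.03), GCLM (-0.02) and SLC7A11 (-0.04) did not pass and ALDH3A1 fell (-0.90). Of the 11 genes of the glutathione list only GSS rose and only GSTP1 fell in the NRF2 line, near the 21.6% of all genes called. In FGFR1, FTL (0.69), SQSTM1 (0.64), FTH1 (0.58) and TXNRD1 (0.34) rose. So did 5 of 7 genes of the ATF4 stress response, whose median was 0.83. In that comparison 13.5% of all genes were called, and 1040 of 14347 were higher. All 7 genes of that stress list were higher in GFP than in HcRed (median 0.76), the comparison in which NQO1 was higher by 0.40. There 45.0% of all genes were called, and 3152 of 14186 were higher. In FAT1 5 of the 7 were lower than in GFP (median -0.25), against 23.9% of all genes. The list did not follow NQO1 in every line. In CDKN2A, where NQO1 was lower, 3 of the 7 rose and 0 fell (median 0.07), where 29.4% of all genes were higher. In NRF2, where NQO1 was higher, 0 rose and 2 fell (median -0.14). In NRG1 and PIK3CA 3 and 2 rose and 0 fell, where 10.8% and 27.8% of all genes were called. The part of these other programmes in the NQO1 differences was not tested.

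**Figure D4:**
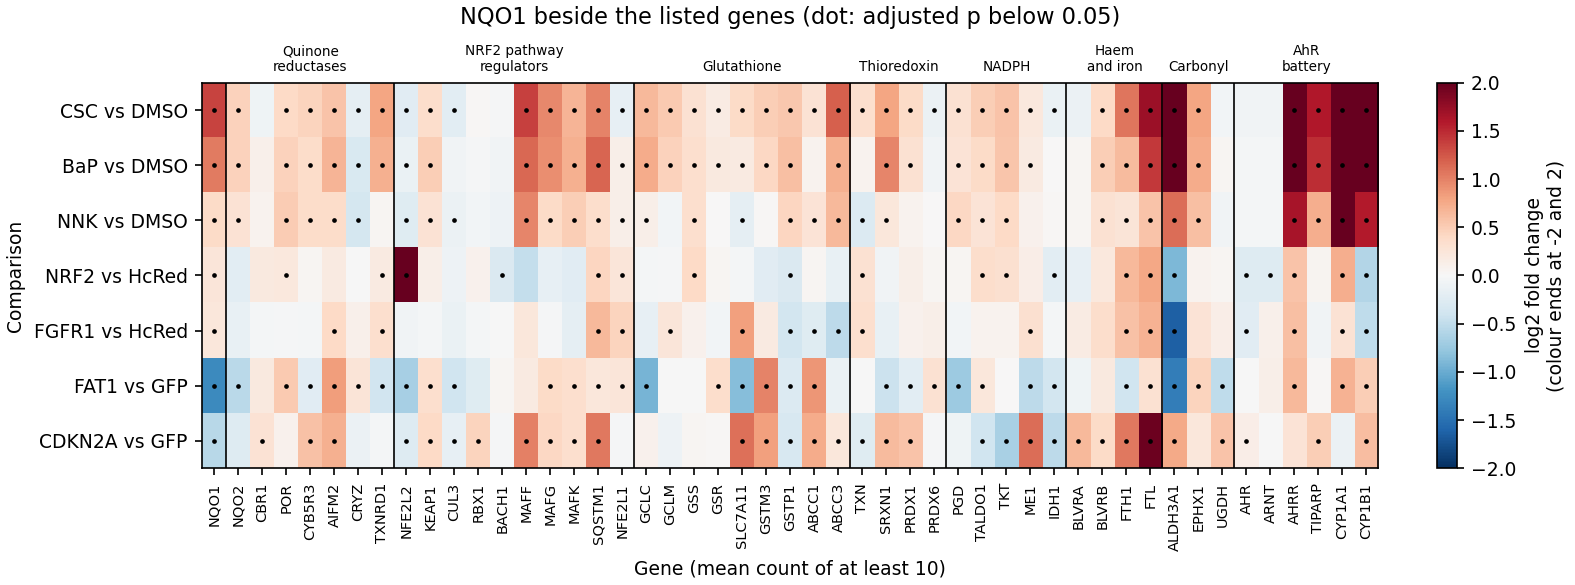
Log2 fold change (colour, which ends at -2 and 2) of NQO1 and of most listed genes that averaged 10 or more reads (columns) in 7 comparisons over all genotypes or treatments (rows), where a dot marks an adjusted p below 0.05. NQO1 and most NRF2 targets are higher with CSC and BaP, while in FAT1 and CDKN2A the targets differ from each other in direction and NQO1 is lower.

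The genes whose level followed NQO1 most closely were sought among the 10061 genes that averaged 10 or more reads, by Pearson's r of the mean log2 CPM over the 32 groups. TXNRD1 came first with r = 0.88. It was followed by MFSD10 (0.87), the small nucleolar RNA SNORA73B (0.84, whose reads cannot be told from those of the transcript that hosts it), NDRG1 (0.82), MID1IP1 (0.82), FAM84B (0.80), APEX2 (0.79), GCLC (0.79), CAPNS1 (0.78) and the histone gene HIST1H4D (0.78). The lowest values were those of SCAF8 (-0.81), CBX1 (-0.79), CFAP36 (-0.79), RPL23 (-0.78) and RAD17 (-0.78). These are descriptions over 32 points that share libraries, depth and the same strong chemical effects. Of the 10 highest genes 8 were also in the 10 highest over the 95 libraries and 7 by Spearman's rho. CYP1A1 had r = 0.71 and ranked 54, KEAP1 0.21, and NFE2L2 itself 0.24 at rank 2482. Of the 10 highest genes 7 could be matched to a transcript start, and 3 of the 7 held TGACNNNGC in the same window as above, which for 7 genes is near the 34.5% of all starts. A pair of them is shown only so that the letters can be compared with those of NQO1, in the direction of each gene. Both carry the letters on the other strand.
MFSD10, GRCh37, minus strand, first base at position -464 from the start, chr4:2936992-2937032: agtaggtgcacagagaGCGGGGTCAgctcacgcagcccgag
GCLC, GRCh37, minus strand, first base at position -870 from the start, chr6:53410745-53410785: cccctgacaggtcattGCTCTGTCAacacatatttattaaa

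**Figure D5:**
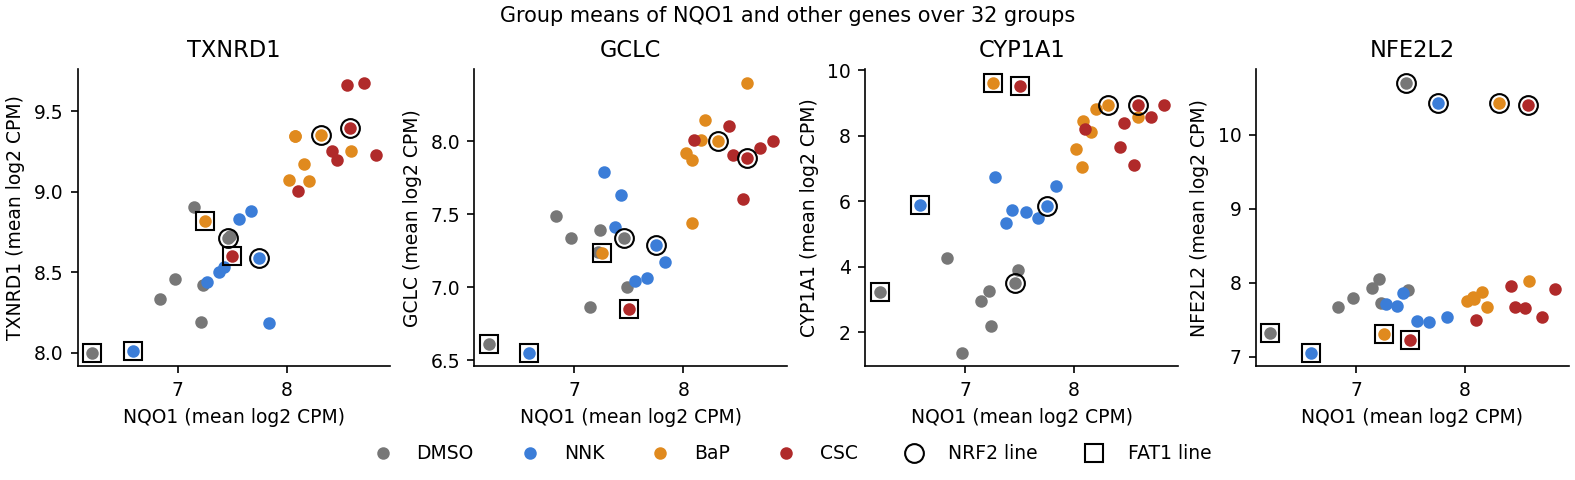
Mean log2 CPM of TXNRD1, GCLC, CYP1A1 and NFE2L2 (vertical axes) against that of NQO1 (horizontal axis) in 32 groups, coloured by treatment, with the NRF2 line circled and the FAT1 line in squares. TXNRD1 rises with NQO1 (r = 0.88), the FAT1 groups with CSC and BaP have the highest CYP1A1 at a low NQO1, and the NRF2 groups stand apart in NFE2L2 but not in NQO1.

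The cells carried the markers of basal airway epithelium. All 7 listed genes (KRT5, KRT14, KRT17, TP63, ITGA6, CDH1 and EPCAM) had at least 10 reads in every library, and their summed level was between 3502 and 11298 CPM, with medians of 5784, 5209, 5456 and 6138 CPM with DMSO, CSC, BaP and NNK. By line it was 3502 to 5458 CPM in FAT1 and 3797 to 5809 in CDKN2A, against 5532 to 7054 in GFP, and 5 of the 7 genes fell in each of these knockouts, against 23.9% and 28.3% of all genes, while EPCAM rose in both (0.45 and 0.77) and TP63 in CDKN2A (0.19). In HcRed the sum was 7090 to 9461 CPM. It was 4609 to 5790 CPM in NRG1, 4688 to 5546 in PIK3CA, 5165 to 8088 in FGFR1 and 6525 to 11298 in NRF2. Against HcRed 6, 6, 5 and 2 of the 7 genes fell in these lines and 0, 1, 1 and 3 rose. Of all genes 10.8%, 27.8%, 13.5% and 21.6% were called there, so lower basal markers were not limited to the knockouts. KRT14 fell by 3.13 in FAT1 and by 0.74 with CSC and with BaP. The part of this in the NQO1 differences was not tested. Of 15 markers of fibroblasts, leukocytes, endothelium and differentiated airway cells, 11 had at most 3 reads in every library, CD3E had none, and SCGB1A1, MUC5AC, PTPRC and CDH5 were at or near 0. The summed level of the 15 markers was 17.4 to 46.1 CPM with DMSO, 40.5 to 74.2 with CSC, 18.7 to 86.4 with BaP and 20.5 to 62.8 with NNK. Most of it came from COL1A1, which rose by 0.91, 0.82 and 0.73, and from CD68, which rose with CSC and with BaP (0.34). Without both, the sum was at most 15.1 CPM in any library. The part of these genes in the NQO1 response was not tested.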

How the data were processed

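Counts of reads per gene from 95 SFL libraries of AALE cells, which the authors deposited as 1 table of raw counts per library, were used without change. According to the submitters' processing notes, adapters were trimmed with cutadapt 1.12, quality was assessed with FastQC 0.11.5, and single-end reads were aligned to hg19 with STAR 2.5.2b and counted with featureCounts (Subread), in RefSeq genes by the study's methods. The strand setting is not given in the sources used here. Libraries were grouped by the genotypic and chemical perturbation in their labels.

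Differential analysis was performed with limma 3.58.1 (voom, TMM normalization from edgeR 4.0.16, R 4.3.3) on genes whose mean over the fitted samples exceeded 1 read. The pooled comparisons held genotype or treatment as a term, those within a genotype or treatment held only the samples compared, and differences of response were interaction terms. P-values are 2-sided and adjusted by Benjamini-Hochberg over all genes tested, with a threshold of 0.05. Intervals of a fold are the log2 estimate ± 1.96 SE. Levels are CPM after TMM over the 95 libraries, and log2 CPM uses a prior count of 2. The fits were tested on simulated data with known changes. Alternatives were the edgeR quasi-likelihood test, the DESeq2 1.42.0 Wald test, DESeq2 size factors, no filter, a mean count of at least 10, 1 fit of 95 samples, the replicate number as a block, removal of trends with GC content and with exon length (loess, span 0.3), omission of replicates, libraries, genotypes, treatments or libraries under 500000 reads.

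NQO1 and the gene lists (other quinone reductases, NRF2 regulators, NRF2 targets in 5 roles, AhR battery, ATF4 stress response, basal markers and markers of other cells) were chosen with earlier results of these data known. Named genes were those of the lists with a mean count of at least 10, up to 4 past the threshold with the largest change and up to 2 not past it per list and comparison, every other quinone reductase, the perturbed genes and regulators, and the 10 highest and 5 lowest correlations with NQO1. UGT1A6 (mean count 5.87), the AKR1C genes and the markers of other cells were named outside this rule. Coordinates and sequence came from GRCh37 with GENCODE models lifted to it, in which 24309 of 27978 symbols were found. Exon lengths are those of these models, which may differ from the counted ones. Some genes and sequences are not reported here.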

Additional observations from a re-analysis of the deposited data

How the results depend on the processing

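The CSC, BaP and NNK responses over all genotypes and the NRF2, FAT1, CDKN2A and control-line differences over all treatments kept their direction and stayed past the threshold in each alternative run, at log2 1.31 to 1.46, 0.97 to 1.13, 0.34 to 0.50, 0.20 to 0.31, -1.43 to -1.19, -0.64 to -0.48 and 0.31 to 0.46. The FGFR1 difference of 0.22 was 0.18 to 0.24 without a replicate, and missed the threshold without replicate 1 (0.18), DMSO (0.14) or CSC (0.21). The NRG1 difference of 0.02 turned to -0.0025 with no filter, -0.044 without DMSO and -0.0042 without NNK. The PIK3CA difference of 0.09 ran from -0.0014 to 0.13 without a replicate and passed without BaP (0.15). The cause was not tested in any of these 3. Leaving out 1 library moved NNK in FGFR1 from -0.049 to 0.22, FGFR1 against HcRed with BaP from -0.17 to 0.069, NRG1 with CSC from -0.046 to 0.021 and PIK3CA with BaP from -0.20 to 0.030. Of 24 line differences within a treatment 11 passed, and 7 to 10 without a replicate. DESeq2 called 8 of them and 18 of the 24 chemical responses, against 20 with limma-voom and edgeR. The total of called genes over all lists, in either direction, stayed within 1.5 times under all 162 alternatives. Counts of single lists or directions were not compared in this way. No group mean moved by more than 0.0704 (log2) under another scaling.

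In 0 of 48 comparisons did every same-numbered pair of libraries correlate over 0.1 (mean correlations -0.0336 to 0.116). Counting error lowers such correlations, so these values cannot decide whether replicate numbers pair the libraries. With the replicate block, 20 of 24 chemical responses and 11 of 24 line differences passed, as without it. At this depth counting error alone gave a median SD of 0.11 (log2) for NQO1, beside a pooled NNK response of 0.38.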
